A study of Mus musculus with 6 samples.

Results

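The core circadian clock genes were examined in epididymal white adipose tissue (eWAT), a visceral fat depot, of mice with lung cancer cachexia. The 10 genes, Arntl, Clock, Per2, Per3, Cry1, Cry2, Nr1d1, Nr1d2, Dbp and Bhlhe41, were taken by gene name from the deposited table of raw counts, which lists 54532 genes, 29764 of them with any count. RNA-seq was made from the eWAT of 3 cachectic mice, which carried subcutaneous tumors of LLC cells (Lewis lung carcinoma, of mouse origin), and of 3 control mice. All 6 were C57BL/6 mice with no engineered allele named. The methods give males of 6 to 10 weeks, define cachexia by a weight loss of over 20% and place the sampling on day 21. What the control mice received, and the hour at which each mouse was killed, are not given in the sources used here, and the levels of most clock genes change over the day in fat. The labels number the mice of a group and say nothing more of how they were kept, so the p-values measure the spread between these mice alone.

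The circadian clock is a transcriptional feedback loop that runs in nearly every cell, fat cells included. BMAL1, encoded by Arntl, binds DNA together with CLOCK at sequences called E-boxes and activates the Per and Cry genes, whose proteins return to the nucleus and inhibit BMAL1:CLOCK. A second loop is formed by REV-ERBα and REV-ERBβ, encoded by Nr1d1 and Nr1d2, which are switched on through E-boxes and repress Arntl, in competition with the activating ROR receptors. Dbp encodes a PAR bZIP activator of D-box sequences and is a strong output of the loop, and Bhlhe41 (DEC2) is a further repressor that binds E-boxes. In fat, the clock is known for its part in the daily rhythm of lipid storage and release.

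The total count per sample was between 14928766 and 18855546. After normalization the counts are given as CPM, a gene's share of all counts scaled to the same total in each mouse, and 16003 genes with enough counts, all 10 clock genes among them, entered the quasi-likelihood test of edgeR. A gene is said to have risen or fallen where its p-value, adjusted over all tested genes by Benjamini-Hochberg, was under 0.05. Adipocyte markers checked the tissue label as far as fat, but not the depot. The summed level of 10 of them was 27930 to 31360 CPM in control mice and 29750 to 43360 CPM in cachectic mice, and none was at 0. The list was not uniform: Cidec and Pnpla2 rose, Lep fell and 7 did not pass. Lep went from a mean of 1020 CPM in control mice to 116 CPM in cachectic mice (edgeR adjusted p = 0.0475). Plin1, among the 7, went from 2074 to 767 CPM without overlap (edgeR adjusted p = 0.0570). Of 11 tested neutrophil markers 10 rose, and the summed level of the list of 12 was 31.0 to 47.3 CPM in control mice and 276 to 849 CPM in cachectic mice. Ly6g, which defines neutrophils, was at 0 in every control mouse and at 8, 10 and 6 reads in cachexia replicates 1, 2 and 3. These reads were too few for it to be tested. All 5 erythroid genes rose as well (238 to 478.5 against 1380 to 2828 CPM). Of 8 endothelial genes 2 rose and 6 did not pass. Beside these lists, 9.0% of all tested genes rose and 8.63% fell. The summed level of these 8 was 1302 to 1609 CPM in control mice and 1921 to 3264 CPM in cachectic mice. Of 10 macrophage genes 1 rose and 1 fell, and of 7 progenitor genes 1 rose and 2 fell. None of 6 mesothelial and 6 tested lymphocyte genes rose or fell. The median log2 fold change was -0.24 for macrophage, -0.12 for progenitor, -0.42 for mesothelial and -1.01 for lymphocyte genes. The summed level of each of these lists overlapped between the groups. The part of any of these cells in the values below was not tested. In a bulk tissue, fewer cells of a type and less RNA per cell cannot be told apart. In a principal component analysis the leading component (57.6% of the variance) separated the groups, the next (16.3%) set control replicate 1 apart, and the third (14.5%) set cachexia replicates 2 and 3 (-38.5 and 40.6) at opposite ends.

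Of the 10 clock genes, 2 rose in cachectic mice, Nr1d1 and Nr1d2, and 2 fell, Arntl and Bhlhe41. The other 6 (Clock, Per2, Per3, Cry1, Cry2 and Dbp) did not pass the threshold. Among all tested genes 17.6% passed it, 9.0% upward and 8.63% downward. The median log2 fold change of the 10 genes was -0.24, beside -0.0031 for all tested genes. The cachectic and the control mice did not overlap in 4 of the 10 genes (Arntl, Per3, Nr1d2 and Bhlhe41), a share close to the 40.5% of all tested genes. Leaving out cachexia replicate 3, in which several clock genes stood apart, gave 2 genes higher and 3 lower. Each of the other 5 mice, left out in turn, gave 0 or 1 higher and 1 or 2 lower genes, as detailed gene by gene. A two-sided exact permutation test of 3 against 3 mice cannot go below 0.1, so no single gene could pass 0.05 in it.

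**Figure D1:**
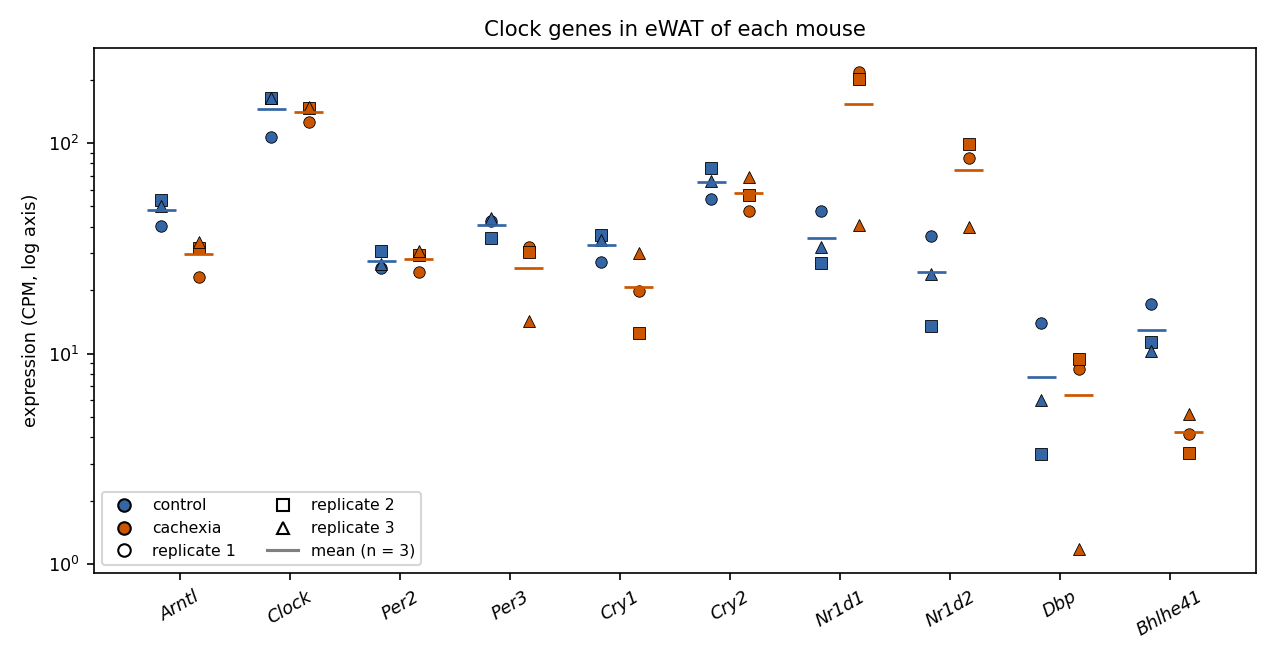
Expression in CPM (log axis) of the 10 clock genes in each of the 3 control (blue) and 3 cachectic (orange) mice, with marker shapes for the replicate number and short lines for the group means. Nr1d1 was at 217 and 200.2 CPM in cachexia replicates 1 and 2 but at 40.9 CPM in replicate 3, inside the range of the controls, and Bhlhe41 was lower in all 3 cachectic mice than in any control.

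Arntl and Clock encode the activating pair. Arntl lies on chromosome 7 from 113207465 to 113314126, in the coordinates of the files (GRCm38). Values are given in the order of replicates 1, 2 and 3 here and for the genes that follow. The controls expressed it at 40.3, 53.9 and 50.1 CPM. The cachectic mice expressed it at 23.2, 31.8 and 33.9 CPM. Every cachectic mouse was below every control mouse. Arntl fell, from a mean of 48.1 ± 6.98 CPM to 29.6 ± 5.65 CPM (SD, n = 3 mice each). The log2 fold change was -0.70, with a standard error of 0.18 and an edgeR adjusted p = 0.0365. Leaving out a mouse kept the direction. The call was lost without control replicate 2 (-0.61, edgeR adjusted p = 0.121), control replicate 3 (-0.67, 0.124), cachexia replicate 1 (-0.55, 0.0833) or cachexia replicate 2 (-0.75, 0.0652), and over the 15 other settings the adjusted p from edgeR, DESeq2 or limma ran from 0.0093 to 0.124. Clock, on chromosome 5 from 76209868 to 76304792, had 107, 163 and 163 CPM in the controls and 126, 146 and 149 CPM in the cachectic mice. These ranges overlapped, control replicate 1 being the lowest of all 6 mice. The log2 fold change was -0.04 (standard error 0.19, edgeR adjusted p = 0.903). Its sign turned under library totals without the normalization factors (0.028) and without control replicate 2 (0.0546), control replicate 3 (0.0538) or cachexia replicate 1 (0.0301), so no direction is given for Clock. An antisense gene, Gm45355, shares 33 exon bases with Arntl and had a mean of 0.0707 CPM in controls and 0.0447 CPM in cachectic mice.

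The stretch of 30 bases of Arntl printed here lies in its first exon at chr7:113207528-113207557 (GRCm38.p6, plus strand, sequence from RefSeq). It is shown because it holds, in capitals, a match to the ROR/REV-ERB element, the sequence through which the products of Nr1d1 and Nr1d2 bind DNA. The match starts at base 27 of a RefSeq transcript. On either strand, 0.384% of 32851 promoter windows of 300 bases held such a match, and Arntl was the only holder among the 9 clock genes with a window, Per2 having none.
Arntl: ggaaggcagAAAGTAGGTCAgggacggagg

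Nr1d1 and Nr1d2, the repressors of Arntl, had the largest fold changes of the 10 genes in the upward direction. Nr1d1, on chromosome 11 from 98767932 to 98775333, had 47.7, 26.9 and 32.1 CPM in the controls and 217, 200.2 and 40.9 CPM in the cachectic mice. Cachexia replicates 1 and 2 were far above all controls, while replicate 3 lay between control replicates 3 and 1. Nr1d1 rose from a mean of 35.6 ± 10.8 CPM to 153 ± 97.3 CPM (SD, n = 3 mice each). Its log2 fold change was 2.10, with a standard error of 0.56 and an edgeR adjusted p = 0.0383, while the exact permutation test gave p = 0.2. Without cachexia replicate 3 the log2 fold change was 2.56 (standard error 0.24, edgeR adjusted p = 0.00482). The call was lost when any of the other 5 mice was left out: the log2 fold change was 2.37, 1.94 and 2.03 without control replicates 1, 2 and 3 and 1.76 and 1.86 without cachexia replicates 1 and 2, with edgeR adjusted p from 0.0584 to 0.127. It was also lost with limma-voom (1.80, adjusted p = 0.0742) and with limma on FPKM values, where the log2 fold change was 1.72 or 1.79 (adjusted p = 0.0960 or 0.0890). Over the 15 settings the adjusted p from edgeR, DESeq2 or limma ran from 0.00482 to 0.127. The end of Nr1d1 overlaps Thra on the other strand by 263 exon bases, 8.55% of its exon length, and Thra itself stood at 126 and 122 CPM (log2 fold change -0.05, edgeR adjusted p = 0.870).

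Nr1d2, on chromosome 14 from 18204054 to 18239127, had 36.2, 13.5 and 23.9 CPM in the controls and 85.0, 99.2 and 40.0 CPM in the cachectic mice. The groups did not overlap, but cachexia replicate 3 was only just above control replicate 1. Nr1d2 rose from a mean of 24.5 ± 11.4 CPM to 74.7 ± 30.9 CPM (SD, n = 3 mice each). Its log2 fold change was 1.61, with a standard error of 0.42 and an edgeR adjusted p = 0.0361. Without cachexia replicate 3 it was 1.91 (edgeR adjusted p = 0.0227). The call was lost without control replicate 2 (1.32, edgeR adjusted p = 0.0919), control replicate 3 (1.59, 0.118), cachexia replicate 1 (1.504, 0.0918) or cachexia replicate 2 (1.35, 0.0947), and with limma on log2(FPKM + 1) (1.39, adjusted p = 0.0520), while the direction held in all 15 settings (adjusted p from 0.000841 to 0.118 with edgeR, DESeq2 or limma). No other gene of the table overlaps Nr1d2.

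The 250 bases before the RefSeq start of Nr1d1, at chr11:98775378-98775627 (GRCm38.p6, minus strand), are shown because Nr1d1 changed most. The capitals mark the variant E-box CACGTT, here on the other strand, which starts 28 bases before the start. This variant was found in 4.68% of the 32851 windows on either strand, and the E-box CACGTG in 7.15%. In the window of Nr1d2 none of the motifs searched was found.
Nr1d1: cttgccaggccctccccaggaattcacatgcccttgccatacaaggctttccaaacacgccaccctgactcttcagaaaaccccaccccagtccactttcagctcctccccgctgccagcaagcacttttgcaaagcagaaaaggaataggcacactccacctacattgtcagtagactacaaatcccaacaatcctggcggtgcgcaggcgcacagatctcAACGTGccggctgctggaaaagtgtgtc

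Per2 and Per3 encode inhibitors of BMAL1:CLOCK. Per2, on chromosome 1 from 91415982 to 91459324, had the smallest biological coefficient of variation of the 10 genes (0.158). It had 25.4, 30.5 and 26.6 CPM in the controls and 24.4, 29.4 and 30.7 CPM in the cachectic mice, and these ranges nearly coincided. The log2 fold change was 0.04 (standard error 0.15, edgeR adjusted p = 0.890), and its sign turned without control replicate 1 or cachexia replicate 3, so no direction is given for Per2. Per3, on chromosome 4 from 151003652 to 151044665, had 42.7, 35.4 and 44.2 CPM in the controls and 32.2, 30.4 and 14.2 CPM in cachexia replicates 1, 2 and 3. All cachectic mice were below all controls, with replicate 3 far below the rest. The log2 fold change of -0.67 (standard error 0.29) did not pass the threshold (edgeR adjusted p = 0.142), nor did it in any of the 15 other settings, and without cachexia replicate 3 it was -0.38. Per3 overlaps Camta1 on the same strand without sharing exon bases with it.

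For Per3 the 250 bases before the start, at chr4:151044666-151044915 (GRCm38.p6, minus strand), held 2 matches, in capitals, to the D-box TTANGTAA, the kind of sequence that DBP and its relatives bind. They start 205 and 158 bases before the start. A D-box on either strand was found in 2.32% of the 32851 windows, and Per3 was the only one of the 9 clock genes searched with a match. It is shown because Dbp, another of the 10 genes, encodes a protein that binds D-boxes.
Per3: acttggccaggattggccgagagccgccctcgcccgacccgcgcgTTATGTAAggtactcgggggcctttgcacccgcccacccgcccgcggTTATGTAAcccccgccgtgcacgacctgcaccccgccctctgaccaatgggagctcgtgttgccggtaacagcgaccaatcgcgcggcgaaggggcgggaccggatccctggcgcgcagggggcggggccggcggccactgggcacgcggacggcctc

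Cry1 and Cry2 encode the cryptochromes, the partners of the PER proteins. Cry1, on chromosome 10 from 85131700 to 85185064, had 27.3, 36.7 and 34.5 CPM in the controls and 19.8, 12.5 and 30.1 CPM in the cachectic mice. Cachexia replicate 3 lay above control replicate 1, and the other cachectic mice lay below all controls. The log2 fold change was -0.66 (standard error 0.30, edgeR adjusted p = 0.160). Without cachexia replicate 3 it was -1.02 and passed the threshold (edgeR adjusted p = 0.0397), the only one of 15 settings in which it did (adjusted p from 0.0397 to 0.330). Cry2, on chromosome 2 from 92403646 to 92434043, had 54.3, 76.1 and 66.0 CPM in the controls and 47.8, 56.9 and 68.6 CPM in the cachectic mice, with overlapping ranges (log2 fold change -0.18, standard error 0.18, edgeR adjusted p = 0.521). D930015M05Rik on the other strand shares 295 exon bases with Cry2 and had 0.921 and 1.07 CPM on average in the groups. The 240 bases of Cry1 at chr10:85185065-85185304 (GRCm38.p6, minus strand), which lie before the start of the gene, held both the E-box CACGTG and, on the other strand, its variant CACGTT. They start 60 and 79 bases before the RefSeq start and are in capitals. Cry1 was the only one of the 9 clock genes searched with both, and the window of Cry2 held the variant alone, 166 bases before the start.
Cry1: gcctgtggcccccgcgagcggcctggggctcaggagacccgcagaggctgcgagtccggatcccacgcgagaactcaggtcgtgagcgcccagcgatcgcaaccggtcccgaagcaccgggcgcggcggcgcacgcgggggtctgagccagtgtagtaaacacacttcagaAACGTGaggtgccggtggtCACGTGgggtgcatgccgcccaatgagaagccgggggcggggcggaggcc

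Dbp, on chromosome 7 from 45705088 to 45710203, stood at 14.0, 3.32 and 6.01 CPM in the controls and at 8.46, 9.40 and 1.18 CPM in the cachectic mice. The last value rests on 18 reads, while the other mice had 58 to 279. Replicates 1 and 2 of the cachectic mice thus sat within the control range, and replicate 3 sat below it. The log2 fold change was -0.29 with a standard error of 0.74 (edgeR adjusted p = 0.816), so a change in either direction was not detectable with these mice. Its sign turned without control replicate 1 (0.45) and without cachexia replicate 3 (0.20). Dbp shares 539 bases, 18.0% of its exon length, with Sphk2 on the other strand, and Sphk2 fell in cachectic mice (log2 fold change -0.50, edgeR adjusted p = 0.0391). The use of strand in counting is not given in the sources used here, so how reads of the shared bases were counted is not known.

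Bhlhe41, on chromosome 6 from 145858243 to 145865558, was the only one of the 10 genes to pass the threshold in all 15 other settings. It had 17.1, 11.3 and 10.3 CPM in the controls and 4.14, 3.38 and 5.18 CPM in the cachectic mice. The highest cachectic mouse was well below the lowest control. Bhlhe41 fell from a mean of 12.9 ± 3.68 CPM to 4.23 ± 0.904 CPM (SD, n = 3 mice each). Its log2 fold change was -1.61, with a standard error of 0.28 and an edgeR adjusted p = 0.00979. In the other settings the adjusted p was at most 0.0336 with edgeR, DESeq2 or limma, and with each mouse left out the log2 fold change stayed between -1.77 and -1.35. With limma on log2(FPKM + 1), where the added 1 is large beside this low gene, it was -0.83. Gm43909, a predicted gene on the other strand, shares 1280 exon bases with it (19.05% of its exon length) and had a mean of 0.231 CPM in controls and 0.0609 CPM in cachectic mice. The 112 bases before the gene, at chr6:145865559-145865670 (GRCm38.p6, minus strand), are shown for the E-box CACGTG in capitals, 153 bases before the RefSeq start.
Bhlhe41: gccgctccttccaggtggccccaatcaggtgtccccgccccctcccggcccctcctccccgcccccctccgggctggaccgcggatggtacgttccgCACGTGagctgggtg

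**Figure D2:**
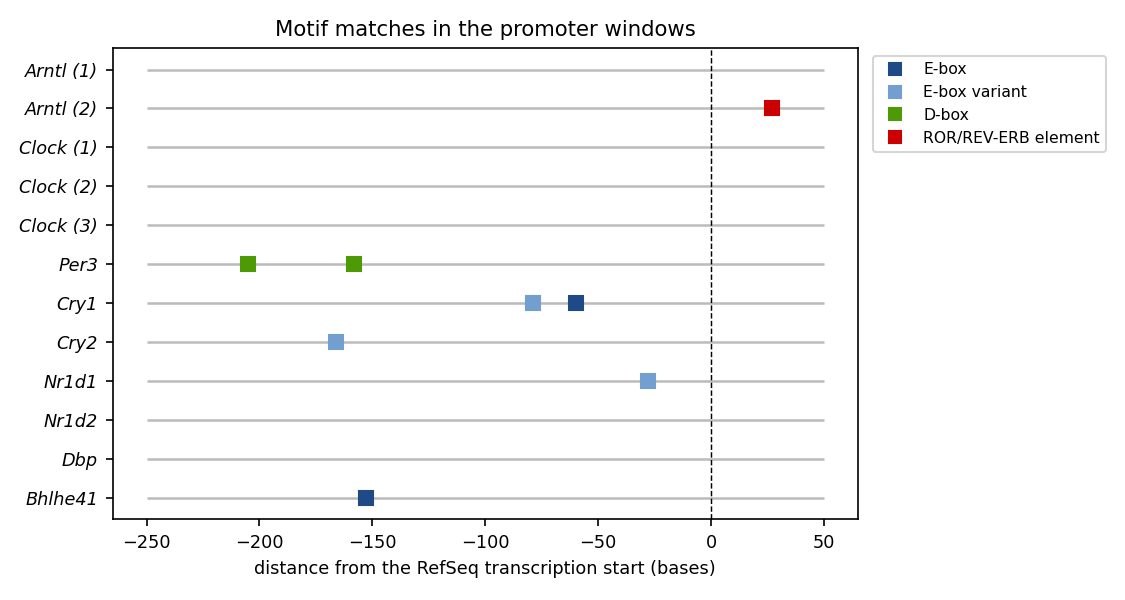
Positions of motif matches in the promoter windows of the clock genes, from 250 bases before to 50 bases after each RefSeq start (dashed line), with numbers in brackets where a gene has several starts. E-boxes lie before the starts of Cry1 and Bhlhe41, the variant E-box before those of Cry1, Cry2 and Nr1d1, D-boxes before that of Per3, and the ROR/REV-ERB element after a start of Arntl.

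Windows were matched for 9 of the 10 clock genes, and Per2 had none. No motif was found in the windows of Clock, Nr1d2 and Dbp, which says only that these letters are not in these 300 bases. The genes that rose or fell in eWAT did not share a motif: Nr1d1 held the variant E-box, Bhlhe41 the E-box, Arntl the ROR/REV-ERB element and Nr1d2 none.

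**Figure D3:**
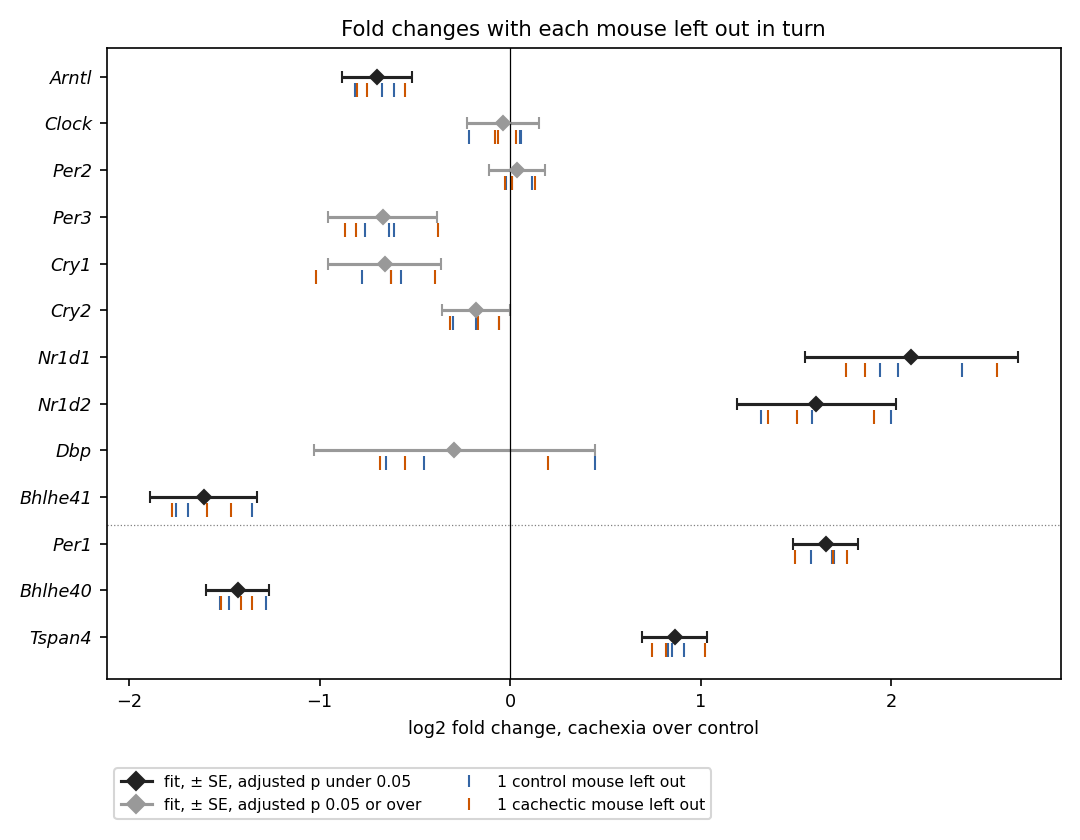
Fold changes between cachectic and control mice on the log2 scale, with standard errors (diamonds, dark where the adjusted p was under 0.05) for the 10 clock genes and, below the dotted line, the 3 further clock-related genes that passed the threshold. Ticks give the fold change with 1 control (blue) or 1 cachectic (orange) mouse left out, and those of Dbp fall on both sides of 0, from -0.68 to 0.45.

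By the median over genes, the mice of a group differed more in the 10 clock genes than in all tested genes. This did not hold for every gene or mouse. The biological coefficient of variation of Per2 (0.158), Cry2 (0.177), Arntl (0.180) and Clock (0.185) was below the median of all tested genes (0.216). That of the other clock genes was above it. In control replicate 3 the median absolute difference from the other controls was 0.14 for the 10 genes and 0.16 for all tested genes. Among control mice the median standard deviation of log2 CPM was 0.30 for the 10 genes and 0.19 for all tested genes. Among cachectic mice it was 0.45 and 0.26, and it reached 1.44 for Dbp. Cachexia replicate 3 had the largest median distance from its group of the 6 mice. It was the lowest cachectic mouse in Per3, Nr1d1, Nr1d2 and Dbp, and the highest in the other 6 genes. In log2 CPM its Nr1d1 differed from the mean of the other cachectic mice by -2.34 and its Dbp by -2.49 (-2.92 without the pseudocount of 0.5), and 0.331% and 0.306% of tested genes lay at least as far from them in this mouse. The same difference was -1.19 for Nr1d2, -1.11 for Per3 and 0.91 for Cry1. Over the 10 genes its median absolute difference was 0.67, beside 0.30 over all tested genes. This mouse also had the highest neutrophil marker sum (849 against 291 and 276 CPM) and the smallest total count. The sum was led by S100a9 (340 against 102 and 79.1 CPM) and S100a8 (186 against 51.4 and 48.2 CPM). Other markers of the list, Csf3r (12.3 against 30.5 and 27.6 CPM) and Mmp9 (34.75 against 55.1 and 49.3 CPM), were lowest in this mouse. The part of the marker sum and of the total count in the differences of its clock genes was not tested.

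The control mice also differed among themselves. Control replicate 2 was the lowest control in Per3, Nr1d1, Nr1d2 and Dbp, the genes in which cachexia replicate 3 was lowest, and the highest in Arntl, Per2, Cry1 and Cry2. In log2 CPM its Nr1d2 differed from the mean of the other controls by -1.10 and its Dbp by -1.35, and 2.48% and 1.41% of tested genes lay at least as far. In the opposite direction, control replicate 1 was the highest control in Nr1d1, Nr1d2, Dbp and Bhlhe41, and the lowest in Arntl, Clock, Per2, Cry1 and Cry2. Its Dbp was higher by 1.54 and its Nr1d2 by 0.99 on the log2 scale than the mean of the other controls, and its Clock was lower (-0.61). Of all tested genes, 2.54% lay at least as far from the other controls as Dbp in this mouse. The targets of BMAL1:CLOCK were set against its genes within each mouse, as the mean log2 CPM of Per2, Per3, Nr1d1, Nr1d2, Dbp and Bhlhe41 minus that of Arntl and Clock. This difference was -1.23, -2.52 and -2.17 in the controls and -0.91, -1.20 and -2.36 in the cachectic mice, in the order of their numbers. Cachexia replicate 3 thus lay between control replicates 2 and 3, and control replicate 1 lay beside cachexia replicate 2. The group means, -1.98 ± 0.67 and -1.49 ± 0.77 (SD, n = 3 each), differed by less than the spread within the groups.

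**Figure D4:**
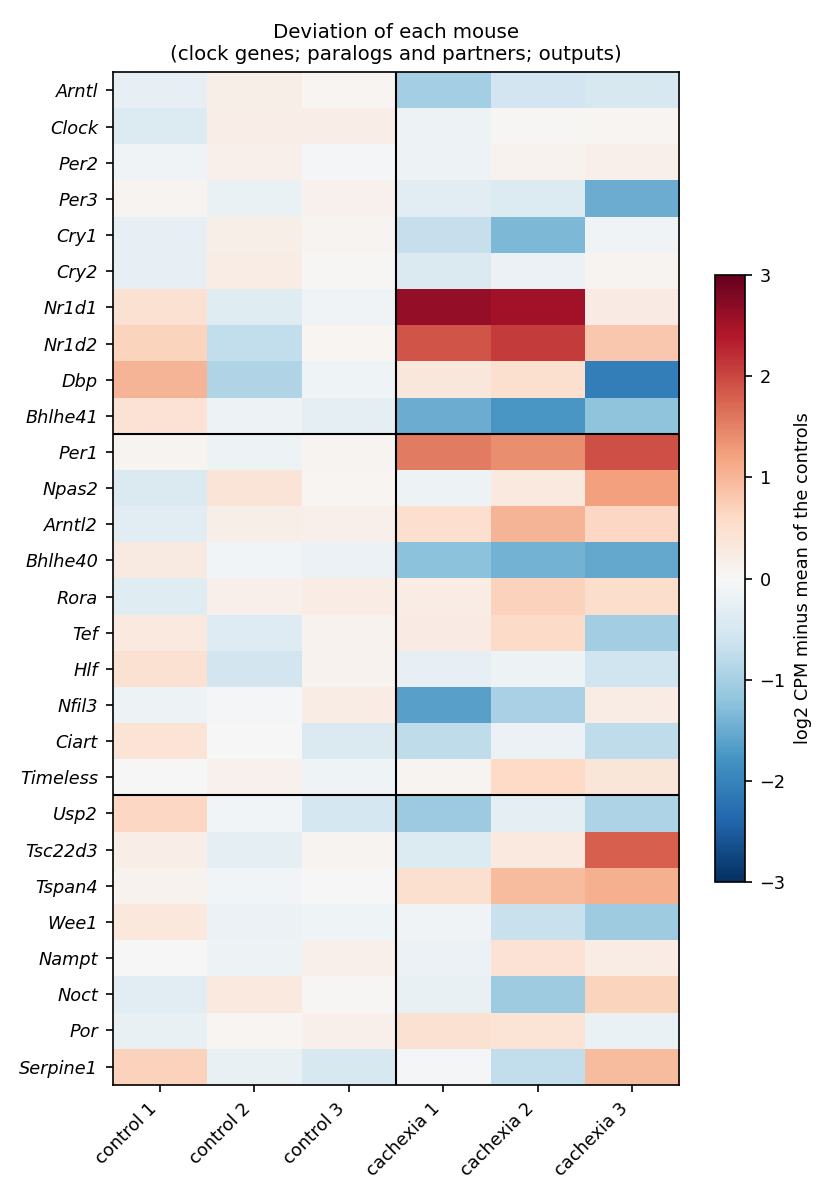
Log2 CPM of each mouse minus the mean of the control mice, in color from -3 to 3, for the 10 clock genes (top), their tested paralogs and partners (middle) and tested output genes (bottom). Nr1d1 stands at 2.64 and 2.52 in cachexia replicates 1 and 2 and at 0.24 in replicate 3, whereas Per1 stands between 1.40 and 1.93 in all 3 cachectic mice.

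Pairs of clock genes were also compared within each mouse, as differences of log2(CPM + 0.5). The added 0.5 lowers the differences of genes with few reads, of which Dbp in cachexia replicate 3 is the clearest case. Nr1d1 and Dbp are both E-box targets. Log2 CPM of Nr1d1 minus that of Dbp was 1.73, 2.84 and 2.33 in the controls and 4.60, 4.34 and 4.62 in the cachectic mice. Without the added 0.5, a calculation made after seeing the data, the cachectic mice stood at 4.68, 4.41 and 5.12, so their closeness on the first scale rests in part on the 0.5, and replicate 3, with 18 reads of Dbp, had the largest difference. The groups, with means of 2.30 ± 0.55 and 4.52 ± 0.16 with the 0.5 and of 2.40 ± 0.62 and 4.74 ± 0.35 without it (SD, n = 3 each), did not overlap on either scale, although neither gene separated the groups by itself. The corresponding difference for Nr1d2 and Dbp was 1.34 to 1.90 in controls and 3.26 to 4.59 in cachectic mice (1.37 to 2.02 and 3.33 to 5.08 without the 0.5). Nr1d1 minus Nr1d2 overlapped between the groups (0.39 to 0.97 against 0.03 to 1.35). Nr1d1 minus Arntl was 0.24, -0.99 and -0.63 in the controls and 3.20, 2.64 and 0.27 in the cachectic mice, so replicate 3 exceeded control replicate 1 by little. Cry1 minus Cry2 was -0.98, -1.04 and -0.93 in the controls and -1.25, -2.15 and -1.18 in the cachectic mice, lower in each of these than in any control. These pairs were chosen with the values of the genes known and are given without a test.

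**Figure D5:**
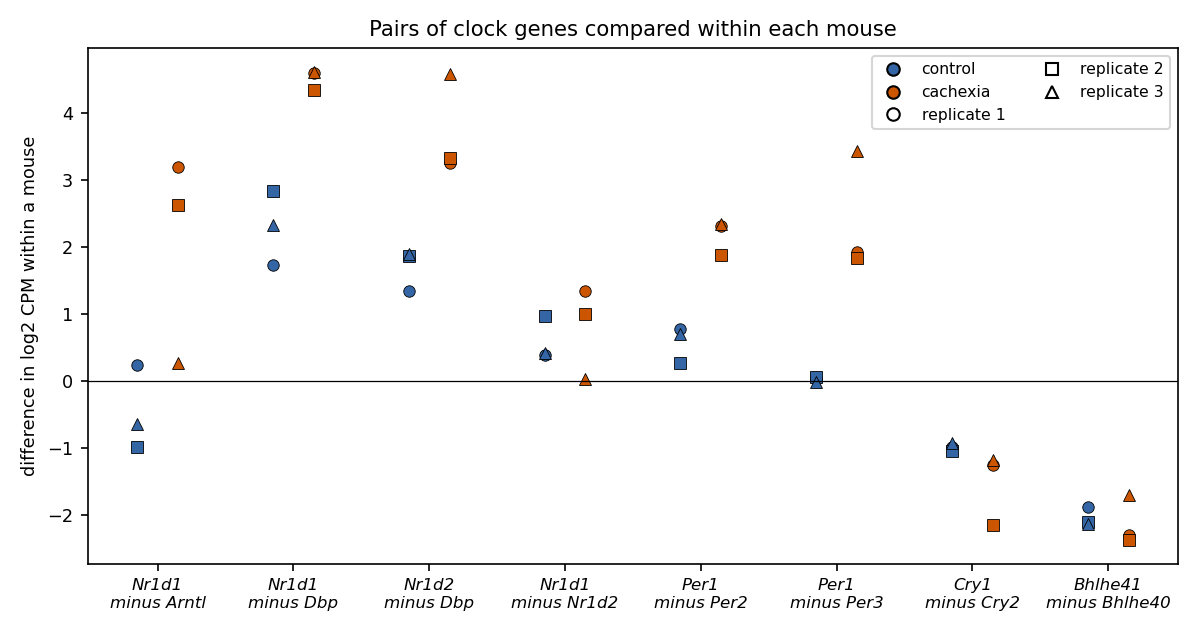
Difference in log2 CPM between the genes of a pair within each control (blue) and cachectic (orange) mouse, with marker shapes for the replicate number. For Nr1d1 minus Dbp the cachectic mice lie between 4.34 and 4.62, above all controls, while Bhlhe41 minus Bhlhe40 overlaps between the groups.

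The other genes of the clock came from lists of paralogs and partners, of enzymes that control the turnover of clock proteins, and of output genes. Of 11 paralogs and partners 10 were tested, and 1 rose, 1 fell and 8 did not pass the threshold. Among all tested genes 9.0% rose and 8.63% fell. The median log2 fold change was 0.20, beside -0.0031 for all tested genes. Rorb, a ROR receptor of neural tissue, was not tested, with at most 1 read in a mouse. Per1, the paralog of Per2 and Per3 that is induced fastest by hormones and other signals, had 44.1, 37.1 and 43.7 CPM in the controls and 124, 110.4 and 159 CPM in the cachectic mice. It rose in all 3, cachexia replicate 3 having the highest value, by 1.66 on the log2 scale (standard error 0.17, edgeR adjusted p = 0.00192), and passed the threshold in all 15 other settings. Per1 minus Per2, in log2 CPM, was 0.28 to 0.78 in the controls and 1.89 to 2.35 in the cachectic mice, and Per1 minus Per3 was -0.02 to 0.07 and 1.84 to 3.44. Per2 minus Per3 overlapped between the groups, at -0.74 to -0.21 and -0.39 to 1.09. These differences were not tested.

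Bhlhe40 (DEC1), the paralog of Bhlhe41, had 64.3, 50.6 and 46.9 CPM in the controls and 22.4, 19.7 and 18.0 CPM in the cachectic mice. It fell by 1.43 on the log2 scale (standard error 0.16, edgeR adjusted p = 0.00274), in all 15 other settings too. Bhlhe41 minus Bhlhe40 was -2.14 to -1.88 in the controls and -2.38 to -1.70 in the cachectic mice, so the proportion of these paralogs overlapped between the groups. Nfil3, a repressor at D-boxes, had 28.8 to 37.9 CPM in the controls and 10.1, 16.3 and 38.0 CPM in cachexia replicates 1, 2 and 3 (log2 fold change -0.60, edgeR adjusted p = 0.355). Without cachexia replicate 3 its log2 fold change was -1.29 (edgeR adjusted p = 0.0222), which made 2 lower genes in this list. Tef, a relative of Dbp, was at 109.5, 137 and 44.3 CPM in the cachectic mice and 70.1 to 114 CPM in the controls (log2 fold change 0.04, edgeR adjusted p = 0.948).

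None of the 9 tested genes for turnover of clock proteins rose or fell, among them the casein kinases Csnk1d and Csnk1e, which phosphorylate PER proteins. These 9 genes had a median log2 fold change of -0.08, and that of Gsk3b, a further clock kinase, was -0.59 (edgeR adjusted p = 0.0678, and adjusted p = 0.0282 with DESeq2). At an unadjusted p under 0.05, Gsk3b was the only gene of this list. Of 8 output genes 1 rose, Tspan4, with a mean of 54.5 ± 3.33 CPM in controls and 99.2 ± 20.5 CPM in cachectic mice (SD, n = 3 mice each). Its log2 fold change was 0.86, with a standard error of 0.17 and an edgeR adjusted p = 0.0148. It did not pass without control replicate 2 (0.83, edgeR adjusted p = 0.0619) or control replicate 3 (0.85, 0.0713). The other 7 did not pass, and the median log2 fold change of the 8 output genes was 0.15. Among all tested genes 9.0% rose and 8.63% fell, and the counts of these lists are not read as a result about the lists. Tsc22d3, a target of glucocorticoids, had 138 to 189 CPM in the controls and 124, 203 and 573 CPM in cachexia replicates 1, 2 and 3, so that replicate 3 stood alone (log2 fold change 0.84, edgeR adjusted p = 0.275, and -0.03 without this mouse).

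Levels of different genes were compared per length, as the FPKM values of the authors. In control mice Nr1d1 (11.4 ± 3.50 FPKM), Clock (10.4 ± 2.31), Cry2 (10.2 ± 1.68) and Cry1 (9.70 ± 1.42; SD, n = 3 each) were highest, and each overlapped the next. Arntl followed with 6.31 ± 0.90 FPKM, apart from both its neighbours in the order. Per2 (4.64), Nr1d2 (4.48), Per3 (4.19), Dbp (2.57) and Bhlhe41 (1.90 FPKM) came last, each overlapping the next. In cachectic mice Nr1d1 led with 48.6 ± 31.0 FPKM, followed by Nr1d2 with 13.5 ± 5.59 FPKM, and Arntl (3.85 ± 0.72 FPKM) came after Per2 (4.71 ± 0.54 FPKM). Every gene overlapped the next in this group. Bhlhe41 was the lowest of the 10 genes in both groups, at 0.615 ± 0.131 FPKM (SD, n = 3) in cachectic mice.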

How the data were processed

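RNA-seq of eWAT from 3 cachectic and 3 control mice was analyzed. Reads of good quality were mapped by the authors with Hisat2, and featureCounts (1.5.0-p3 in the submitters' processing notes) gave the counts per gene, which the authors deposited as raw counts without normalization. FPKM values, calculated by the authors from count and gene length, were also deposited. The processing notes name mm9, but 99.8% of the gene identifiers occur in GENCODE M21, on GRCm38, where 98.3% of those found sit at identical positions, as do all 10 clock genes. The deposited table of the authors' own comparison (log2 fold changes and p-values of DESeq2 1.16.1) was not used. Strand use in counting is not given in the sources used here.

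The test was edgeR 4.0.16 in R 4.3.3 (genes kept by filterByExpr, TMM factors 0.937 to 1.07, quasi-likelihood test without covariates, Benjamini-Hochberg adjustment over 16003 genes, threshold 0.05). Standard errors are the log2 fold change divided by the square root of F. The biological coefficient of variation was 0.264 over all genes, and it sets the precision of a gene together with total counts of 14928766 to 18855546. Log2 CPM used a pseudocount of 0.5. The alternatives were RLE factors, library totals, all genes unfiltered, a minimum of 10 counts in each mouse, DESeq2 1.42.0, limma-voom, limma 3.58.1 on log2(FPKM + 1) or log2(FPKM + 0.1), a replicate block and each mouse left out. The scripts were tested on simulated counts. Promoter windows (250 bases before to 50 after each start) came from RefSeq on GRCm38.p6 and were searched on both strands. Replicate numbers do not mark shared animals. No pair of mice had near-identical counts.

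All 10 clock genes are named, with those genes of the further lists that passed the threshold. Nfil3, Tef, Gsk3b, Tsc22d3, Rorb, Csnk1d, Csnk1e, Arntl2 and the genes that overlap clock genes were named after their values were seen. So were the adipocyte markers Lep, Plin1, Cidec and Pnpla2 and the neutrophil markers S100a8, S100a9, Csf3r and Mmp9. The clock genes and lists were chosen with earlier results of these data known. A gene was taken out of each of 2 lists (paralogs and partners, turnover) after the analysis and is not reported here, and the counts and medians of these lists leave it out.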

Additional observations from a re-analysis of the deposited data

How the results depend on the processing

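Of 150 values of the 10 clock genes over 15 other settings, 122 kept the direction and the side of the threshold, 19 lost the call, 1 gained it and 8 changed sign. Bhlhe41 passed in all 15 and Clock, Per2, Per3, Cry2 and Dbp in none. The number of clock genes that rose was 2 with RLE factors, library totals, both filters and DESeq2, 1 with limma-voom and with limma on log2(FPKM + 0.1), and 0 with limma on log2(FPKM + 1) and with the replicate block. With each mouse left out in turn, 0 to 2 rose and 1 to 3 fell. Nr1d1 lost the call with limma-voom (log2 fold change 1.80), limma on log2(FPKM + 1) (1.72) and on log2(FPKM + 0.1) (1.79), and Nr1d2 with limma on log2(FPKM + 1) (1.39). With each mouse left out, the log2 fold change ranged from -0.81 to -0.55 for Arntl, -1.02 to -0.39 for Cry1, 1.76 to 2.56 for Nr1d1 and 1.32 to 2.00 for Nr1d2, all without a change of sign, and from -0.22 to 0.0546 for Clock, -0.0272 to 0.13 for Per2 and -0.68 to 0.45 for Dbp, which span 0. Clock also changed sign with library totals (0.028). The cause of these changes was not tested. A fit with a mouse left out also rests on fewer mice.

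Same-numbered mice did not deviate together (correlations over tested genes of -0.0031, -0.011 and 0.0085 for numbers 1, 2 and 3), so the numbers were not used as pairs. With the replicate block, Nr1d1 had a log2 fold change of 1.84 (edgeR adjusted p = 0.0609) and Nr1d2 of 1.60 (0.0561), and the genes that rose over the whole table numbered 913 in place of 1440. With each mouse left out, 382 to 1197 genes of the whole table rose and 446 to 1142 fell, among paralogs and partners 1 rose and 1 to 2 fell, and among output genes 0 to 1 rose. With DESeq2, 1 gene for turnover of clock proteins fell (Gsk3b) and 2 paralogs or partners rose in place of 1 (Per1 and Arntl2). The group difference between the targets (without Cry1 and Cry2) and the genes of BMAL1:CLOCK, 0.49, moved by less than the SD between mice. It ran from 0.19 to 0.92 with a mouse left out. Without a pseudocount, an alternative added after seeing the data, it was 0.46, and the 12 differences of genes within a mouse moved by less than the SD between mice. Depth limits Dbp most, at 18 reads in cachexia replicate 3.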
